A study of Mus musculus with 20 samples.

Results

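Immediate early genes are transcribed within minutes of a stimulus, without new protein synthesis, and their messengers are short-lived. Calcium entry and MAP kinase signalling act on the factors SRF, ELK1 and CREB at their promoters, and many of the encoded proteins either switch on later genes or damp the signal. In the retina they respond to light and to synaptic activity, and Fos and Egr1 are widely used as markers of recently active neurons. The 10 genes described here, Fos, Fosb, Junb, Egr1, Nr4a1, Arc, Ier2, Dusp1, Btg2 and Sik1, are 10 of the 35006 genes counted in every library. They were selected on a list of activity-induced genes whose level across the 4 groups was already known from these same counts, so their own group differences are given as a description. Where edgeR's calls over all genes include a member, the call is shown beside the share of all genes called and is not independent evidence.

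Retinas of wild-type C57BL/6J mice were profiled by sequencing of poly(A) RNA in 20 libraries. Young mice either had no drug (young control, n = 4) or received NACET, the ethyl ester of N-acetyl-L-cysteine, in the drinking water (young NACET, n = 6), and old mice were divided in the same way (old control, n = 4, and old NACET, n = 6). The intake was 50 mg/kg daily and retinas were taken after 5 days. By their titles, the young controls were 119 days old, the young NACET mice 129 days (n = 4) or 119 days (n = 2, of which replicate 6 carries a batch tag of 129 days), the old controls 668 days, and the old NACET mice 668, 581 or 574 days (n = 2 each). The titles call 2 of 4 young controls and 2 of 6 young NACET mice female and every other mouse male. The study's methods describe both the young and the old mice as male, so sex is given here as labelled. Nothing in the labels gives the hour or the lighting at which the retinas were taken. One old control labelled male (replicate 4) had Xist counts without Y-linked counts, the pattern of a female. Its label is therefore in doubt, but it was kept in its group and counted as labelled male.

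Each library held 17.7 M to 31.1 M counts assigned to genes, and levels are given as CPM, the count of a gene as parts of a 1 M total. The retina was evident in rod genes, whose 8-gene sum ran from 62799 to 95114 CPM, and in Müller glia, amacrine and ganglion cell genes, each list of which was present in every group. The sum of 10 corneal and conjunctival epithelial genes was 619 CPM in old control replicate 2 and 568 CPM in young NACET replicate 4, against 17.5 to 46.5 CPM in the old NACET libraries. The sum of 10 lens genes was 7411 CPM in old NACET replicate 1 and 1.17 to 2.55 CPM in the other old NACET libraries. Replicates of a group were far from identical, with a chi-square per degree of freedom of 2.63 to 34.7 over 42 within-group pairs. Per the study's methods, a single retina of each mouse was sequenced, the fellow eye being used for thiol measurements.

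Promoter sequences are shown for the genes on which the results turn, because signal-responsive promoters of this kind are defined by short, recognisable elements. RefSeq windows of 300 bases around the transcription start, on the transcribed strand and in build GRCm38.p6, were on hand for 6 of the 10 genes (Fos, Fosb, Junb, Nr4a1, Dusp1 and Btg2). Capitals mark matches on either strand to the CREB element TGACGTCA, the short CREB site TGACG, the AP-1 site TGANTCA, the EGR sites GCGTGGGCG and GCGGGGGCG, and the CArG box bound by SRF. Fos (chr12:85473640-85473939, + strand) and Nr4a1 (chr15:101266596-101266895, + strand) are shown as members with lower levels in old NACET retinas, Dusp1 (chr17:26508423-26508722, - strand) and Btg2 (chr1:134079106-134079405, - strand) as the members that hold a whole CREB element, and Nr4a3 (chr4:48045055-48045354, + strand) as a relative of Nr4a1 outside the list that passed the test described further on.
Fos: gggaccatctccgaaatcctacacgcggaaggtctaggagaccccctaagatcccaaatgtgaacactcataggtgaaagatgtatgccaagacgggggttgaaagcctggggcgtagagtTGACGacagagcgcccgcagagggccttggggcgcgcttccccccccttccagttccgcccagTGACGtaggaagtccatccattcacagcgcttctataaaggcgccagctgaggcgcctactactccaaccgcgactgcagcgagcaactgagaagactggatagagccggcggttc
Nr4a1: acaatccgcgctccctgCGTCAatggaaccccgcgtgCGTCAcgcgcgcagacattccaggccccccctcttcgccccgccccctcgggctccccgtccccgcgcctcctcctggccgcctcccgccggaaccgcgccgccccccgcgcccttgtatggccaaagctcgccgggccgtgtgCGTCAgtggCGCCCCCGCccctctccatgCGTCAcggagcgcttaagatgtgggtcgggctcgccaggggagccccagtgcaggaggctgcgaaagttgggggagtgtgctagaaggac
Dusp1: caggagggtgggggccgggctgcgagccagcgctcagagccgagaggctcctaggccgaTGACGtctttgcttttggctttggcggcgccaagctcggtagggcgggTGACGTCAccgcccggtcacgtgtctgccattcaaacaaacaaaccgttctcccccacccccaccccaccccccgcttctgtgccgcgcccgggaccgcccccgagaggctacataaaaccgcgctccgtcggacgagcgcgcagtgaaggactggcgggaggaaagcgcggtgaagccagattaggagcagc
Btg2: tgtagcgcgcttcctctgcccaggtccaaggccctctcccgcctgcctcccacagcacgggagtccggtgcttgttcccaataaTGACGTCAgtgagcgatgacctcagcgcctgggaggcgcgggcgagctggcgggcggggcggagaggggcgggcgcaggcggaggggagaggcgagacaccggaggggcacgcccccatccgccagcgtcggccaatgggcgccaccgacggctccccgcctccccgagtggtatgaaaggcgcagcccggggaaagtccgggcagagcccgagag
Nr4a3: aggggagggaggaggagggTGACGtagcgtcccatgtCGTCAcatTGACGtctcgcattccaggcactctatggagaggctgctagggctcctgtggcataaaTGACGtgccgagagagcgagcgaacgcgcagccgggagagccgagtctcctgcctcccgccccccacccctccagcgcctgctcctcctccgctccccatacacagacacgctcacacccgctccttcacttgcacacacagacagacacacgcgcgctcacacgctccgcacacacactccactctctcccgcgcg

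The short CREB site was present in 6 of 6 member windows and in 20.8% of all 32851 windows in the table. Every whole CREB element contains the short site on both strands and is counted under both. The whole element was in 2 of 6 member windows (Dusp1 and Btg2) against 1.79% of all windows, and an EGR site was in 2 of 6 (Fosb and Nr4a1) against 3.47%. Nr4a1 and Nr4a3 each held 4 short sites, and Fos held 2. Neither the AP-1 site, present in 7.81% of all windows, nor the CArG box, present in 1.63%, matched in the 6 windows, which says only that these letters are not in these 300 bases. These are matches of letters and not measured binding sites.

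The 10 genes differed widely in level. Per kilobase of exon, with exon lengths from GENCODE M1 on mm9, Btg2 had the highest mean level over the 20 libraries (33.4 CPM per kb), and Nr4a1, Ier2 and Fos followed at 9.58, 8.80 and 8.27 CPM per kb. Dusp1, Junb and Egr1 lay at 6.15, 5.97 and 5.13 CPM per kb. Sik1 stood at 2.90 CPM per kb, Fosb at 0.947 and Arc at 0.531, so the synaptic gene Arc was the scarcest. Arc rested on 19 to 76 counts a library, and its lowest library gave 0.933 CPM with an exact (Clopper-Pearson) 95% counting interval of 0.562 to 1.46 CPM. For Fos, with 248 to 947 counts, the lowest library gave 10.9 CPM with an interval of 9.60 to 12.4 CPM. Such intervals cover counting error only.

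**Figure D1:**
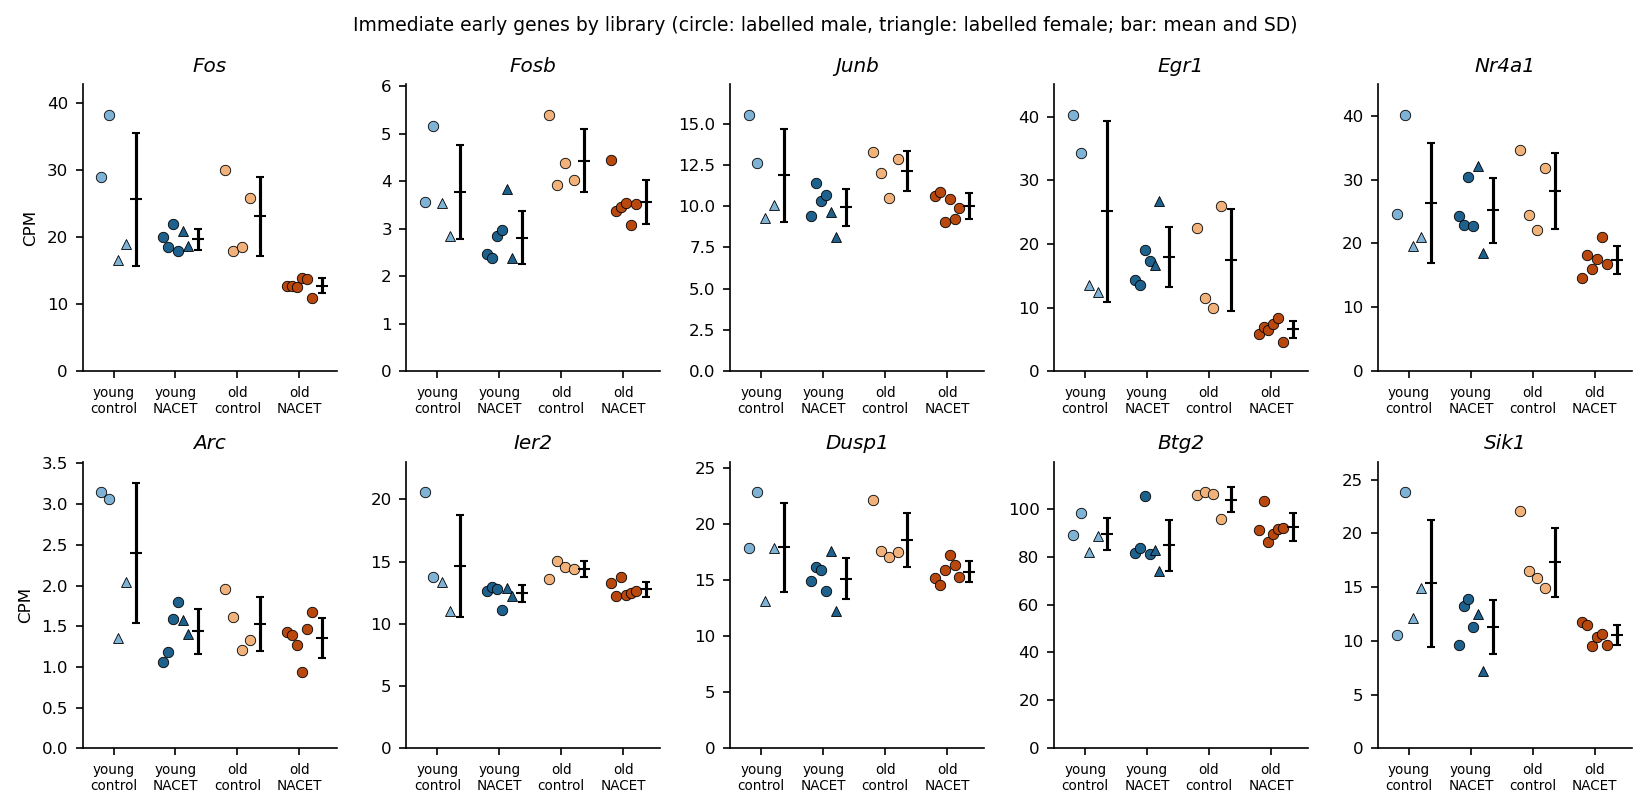
Level in CPM (y axis, linear from 0) of each immediate early gene in every library of the 4 groups (x axis), with the mean and SD beside the points. Circles are mice labelled male and triangles mice labelled female. The 6 old NACET libraries lie below every old control for Fos, Egr1, Nr4a1 and Sik1, and the 2 young controls with the highest Fos and Egr1 are both labelled male.

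Fos, Fosb and Junb encode subunits of the AP-1 transcription factor. Fos (chr12:86814840-86818223, mm9, + strand, 4 exons) was measured in young controls at 28.9, 38.1, 16.6 and 18.9 CPM and in young NACET mice at 17.9 to 21.9 CPM (median 19.3). It was at 30.0, 17.9, 18.6 and 25.8 CPM in old controls and at 10.9 to 13.9 CPM (median 12.7) in old NACET mice. The 6 old NACET libraries were thus the lowest of all 20, and both control groups were far more spread than either treated group. The mean in old mice was 23.1 ± 5.86 CPM (SD, n = 4) in controls and 12.7 ± 1.08 CPM (SD, n = 6) with NACET, a fitted log2 difference of -0.86 (SE 0.12).

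Fosb (chr7:19888070-19895394, - strand), a close relative of Fos that pairs with the same Jun proteins, was at 3.56, 5.15, 3.53 and 2.84 CPM in young controls and at 2.37 to 3.83 CPM (median 2.65) in young NACET mice. In old controls it was at 5.39, 3.93, 4.38 and 4.03 CPM and in old NACET mice at 3.07 to 4.44 CPM (median 3.49). The groups overlapped in every comparison, and old NACET replicate 1, at 4.44 CPM, lay inside the old control range. Junb (chr8:87500811-87502617, - strand, a single exon) was at 15.5, 12.6, 9.28 and 10.1 CPM in young controls and at 8.13 to 11.4 CPM (median 9.97) in young NACET mice. Old controls had 13.3, 12.0, 10.5 and 12.8 CPM and old NACET mice 9.02 to 10.9 CPM (median 10.2). For Junb a single old control (replicate 3) reached into the old NACET range. The fitted log2 differences in old mice were -0.31 (SE 0.12) for Fosb and -0.29 (SE 0.08) for Junb.

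Egr1 and Nr4a1 encode a zinc finger factor and an orphan nuclear receptor that carry the early signal to later genes. Egr1 (chr18:35020861-35024638, + strand, 2 exons) shares 8 exonic bases, 0.258% of its exon length, with a gene model on the opposite strand. It varied most of the 10, from 4.53 to 40.3 CPM over all libraries. Young controls had 40.3, 34.4, 13.6 and 12.5 CPM and young NACET mice 13.6 to 26.8 CPM (median 17.0). Old controls had 22.6, 11.5, 9.85 and 26.0 CPM, and old NACET mice 4.53 to 8.28 CPM (median 6.64). Each control group fell into a pair of high and a pair of low libraries, and the old NACET libraries were below even the low pair. The fitted log2 difference in old mice was -1.42 (SE 0.24), and in young mice -0.50 (SE 0.30).

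Nr4a1 (chr15:101097277-101105223, + strand, 7 exons) was at 24.7, 40.1, 19.6 and 21.0 CPM in young controls and at 18.6 to 32.2 CPM (median 23.6) in young NACET mice. Old controls had 34.7, 24.4, 22.1 and 31.8 CPM and old NACET mice 14.6 to 21.0 CPM (median 17.2). The highest old NACET library (replicate 5, 21.0 CPM) was just under the lowest old control (replicate 3, 22.1 CPM). The fitted log2 difference was -0.70 (SE 0.12) in old mice and -0.08 (SE 0.18) in young mice.

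Dusp1, Sik1 and Btg2 encode brakes on the response: a phosphatase that inactivates MAP kinases, a kinase that holds the CREB coactivators in the cytoplasm, and an antiproliferative protein that promotes messenger decay. Sik1 (chr17:31981193-31992737, - strand, 14 exon blocks) was at 10.5, 23.8, 12.2 and 14.9 CPM in young controls and at 7.22 to 13.9 CPM (median 11.9) in young NACET mice. Old controls had 22.0, 16.5, 15.8 and 14.9 CPM and old NACET mice 9.56 to 11.7 CPM (median 10.5). The old groups did not overlap, and young NACET replicate 6 was the lowest library of all. The fitted log2 difference was -0.72 (SE 0.10) in old mice and -0.46 (SE 0.20) in young mice.

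Dusp1 (chr17:26642535-26645464, - strand) was at 17.9, 22.8, 13.2 and 17.9 CPM in young controls and at 12.3 to 17.6 CPM (median 15.4) in young NACET mice. Old controls had 22.1, 17.6, 17.1 and 17.5 CPM and old NACET mice 14.6 to 17.2 CPM (median 15.6). Only the highest old NACET library crossed the lowest old control for Dusp1. Btg2 (chr1:135971747-135975697, - strand) was at 89.0, 98.1, 81.9 and 88.7 CPM in young controls and at 73.9 to 105 CPM (median 82.2) in young NACET mice. Old controls had 106, 107, 106 and 95.8 CPM and old NACET mice 86.2 to 103 CPM (median 91.3). A single old NACET library (replicate 2) was above the lowest old control for Btg2, and the fitted log2 differences in old mice were -0.24 (SE 0.07) for Dusp1 and -0.18 (SE 0.05) for Btg2.

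Ier2, a small nuclear protein, and Arc, a capsid-like protein that acts in the trafficking of synaptic glutamate receptors, were with Btg2 the members with the smallest fitted differences in old mice. Ier2 (chr8:87185230-87186751, - strand, a single exon) was at 20.6, 13.7, 13.4 and 11.1 CPM in young controls and at 11.1 to 12.9 CPM (median 12.8) in young NACET mice. It was at 13.6, 15.1, 14.6 and 14.4 CPM in old controls and at 12.2 to 13.8 CPM (median 12.6) in old NACET mice. Young control replicate 1 had the highest Ier2 level of all libraries. Arc (chr15:74499513-74503000, - strand, 3 exons) was at 3.14, 3.06, 1.35 and 2.05 CPM in young controls and at 1.06 to 1.80 CPM (median 1.49) in young NACET mice. It was at 1.96, 1.61, 1.20 and 1.33 CPM in old controls and at 0.933 to 1.67 CPM (median 1.41) in old NACET mice. The old groups overlapped almost wholly for Arc, with a fitted log2 difference of -0.17 (SE 0.18). Ier2 differed by -0.18 (SE 0.07), and a single old NACET library (replicate 3) was above its lowest old control (replicate 1).

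Ranked by mean CPM, a control group was the highest of the 4 groups for each of the 10 genes, the old controls for 6 and the young controls for 4. The lowest group was old NACET for 5 genes (Fos, Egr1, Nr4a1, Arc and Sik1) and young NACET for the other 5 (Fosb, Junb, Ier2, Dusp1 and Btg2). Neighbours in that order overlapped in their libraries in all cases except Fos, where old NACET lay apart from young NACET, and Egr1, where old NACET lay apart from old control.

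**Figure D2:**
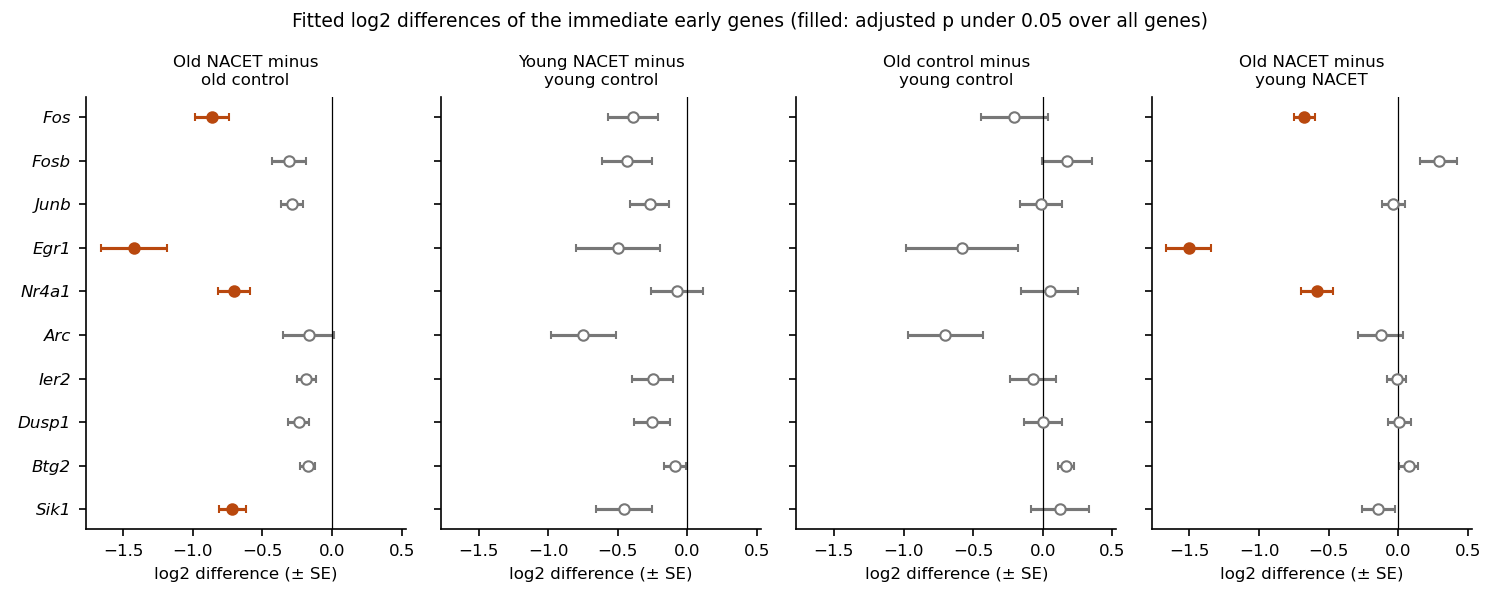
Fitted log2 difference (x axis, with SE) of each immediate early gene (y axis) in the 4 comparisons between groups. Filled points have an edgeR adjusted p under 0.05 over all genes, which 4 genes reached in old NACET against old control mice and 3 in old against young NACET mice.

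In old mice, the comparison of NACET with control asks what the drug changed in the aged retina. All 10 fitted differences were below 0, with a median of -0.30 on the log2 scale against 0.00 for all genes tested. Fos, Egr1, Nr4a1 and Sik1 were among the genes called lower by edgeR's quasi-likelihood test at an adjusted p under 0.05, 4 of 10 members where 0.284% of all 16562 genes were called lower and 0.543% in either direction. The same 4 had no old NACET library at or above any old control, as did 1.81% of all genes in that direction. The genes were listed with this contrast in view, so nothing is read from these counts.

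The old NACET group mixed ages that the old controls did not have. In the 2 old NACET mice of 668 days, the age of the controls, Fos was at 12.6 and 12.7 CPM, Egr1 at 5.87 and 6.88 CPM, and Nr4a1 at 14.6 and 18.2 CPM. Those 2 libraries were below every old control for 6 members (Fos, Egr1, Nr4a1, Ier2, Dusp1 and Sik1), and the 4 libraries of 581 or 574 days were below every old control for 7 (Fos, Fosb, Junb, Egr1, Nr4a1, Btg2 and Sik1). For these smaller sets the share of all genes without overlap was not counted. With fewer libraries a lack of overlap is more common, so nothing is read from these counts. With the 668-day mice alone the log2 differences were -0.87 (SE 0.19) for Fos, -1.46 (SE 0.38) for Egr1, -0.78 (SE 0.17) for Nr4a1 and -0.58 (SE 0.13) for Sik1. That fit called 0 genes of any kind at the adjusted threshold, although 1396 had p under 0.05 before adjustment, and so gave 0 members in place of 4.

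Tissue outside the neural retina varied between the old controls. Old control replicate 2, with 619 CPM of epithelial and 108 CPM of blood markers against 27.1 to 30.5 CPM of blood markers in the other old controls, was the lowest old control for Fos and the second lowest for Egr1. Without it the log2 differences were -0.96 (SE 0.11) for Fos and -1.58 (SE 0.23) for Egr1, and the same 4 members were called. Without old control replicate 4, the library with Xist counts, Egr1 differed by -1.14 (SE 0.22) and 2 members were called (Fos and Sik1) in place of 4. The same 2 remained without old NACET replicate 3 or without old NACET replicate 4. With old control replicates 2 and 4 both left out, a choice made after seeing the data, the log2 differences were -0.91 for Fos, -1.29 for Egr1, -0.69 for Nr4a1 and -0.83 for Sik1, and 0 genes in all were called, although 1185 had p under 0.05 before adjustment. In whole retina, fewer active cells and less messenger per cell cannot be told apart. The summed levels of 10 amacrine and 8 ganglion cell genes were 1183 to 1420 and 899 to 1216 CPM in old NACET mice. In old controls these sums were 1090 to 1263 and 822 to 1075 CPM. All 10 amacrine, all 8 ganglion cell and 7 of 8 Müller glia genes had a higher mean in old NACET mice. The 13 clock genes summed to 1368 to 1528 against 1401 to 1570 CPM, with 8 lower and 5 higher in mean. Genes that go both ways cancel in such a sum, so it does not show whether the clock differed, and this was not tested. Some other markers were lower alongside the members. Of 10 pigment epithelium genes, 9 had a lower mean in old NACET mice, among them Ttr at 10.3 to 40.7 CPM against 39.0 to 81.2, Rgr at 12.6 to 47.7 against 35.3 to 80.6, Rpe65 at 4.19 to 14.1 against 8.76 to 21.5 and Lrat at 1.90 to 7.55 against 6.48 to 12.1 CPM. The summed pigment epithelium list was at 394 to 520 CPM against 478 to 603 CPM, and the sum of the 8 rod genes at 62799 to 75295 against 69909 to 84300 CPM. The means of all 10 epithelial and of 7 of 9 blood genes were lower too. In young mice 8 of 10 pigment epithelium and 10 of 10 epithelial genes had a higher mean with NACET. The part of these tissues and cells in the result was not tested.

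In young mice the 10 fitted differences were again all below 0, with a median of -0.33 against 0.00 for all genes. No member was called, as no gene was (0% of 16588 genes; before adjustment 724 genes, 4 members among them, had p under 0.05, and DESeq2 called 0 genes as well), and no member was without overlap, against 0.205% of all genes lower without overlap. Arc had the lowest value, -0.75 (SE 0.23), with Egr1 at -0.50 (SE 0.30), Sik1 at -0.46 (SE 0.20), Fosb at -0.43 (SE 0.18) and Fos at -0.39 (SE 0.18). Btg2 and Nr4a1 were nearest 0, at -0.09 (SE 0.08) and -0.08 (SE 0.18).

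The young controls can also be set out by labelled sex. Both labelled males (replicates 1 and 2) were above both labelled females (replicates 3 and 4) for 9 of the 10 genes, Sik1 being the exception. For Dusp1 the lower male was at 17.88 and the higher female at 17.86 CPM, and for Btg2 at 88.96 and 88.68 CPM. The share of all genes ordered in this way was not counted. With so few libraries such an order is common, so nothing is read from this count. The members vary together from library to library, so the 9 are not separate findings. Fos was at 28.9 and 38.1 CPM in the males and 16.6 and 18.9 CPM in the females, and Egr1 at 40.3 and 34.4 CPM against 13.6 and 12.5 CPM. The young NACET libraries, 4 males and 2 females, showed no such order for any of the 10 genes, but with more libraries it is rarer. There the males were 129 and the females 119 days old by title, with a batch tag of 129 days for replicate 6. With 2 mice of each sex, a difference of sex and one between these particular mice cannot be told apart.

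The size of the young comparison depended on which mice were kept. Among labelled males alone, young NACET mice differed from young controls by -0.79 (SE 0.13) for Fos, -1.24 (SE 0.14) for Egr1 and -1.16 (SE 0.25) for Arc on the log2 scale, and 1 member, Egr1, was called, again among genes listed with these levels known. These males were 119 days old in controls and 129 days with NACET, so drug and age cannot be told apart there. With the 119-day mice only, by title, Fos differed by -0.37 (SE 0.29), Egr1 by -0.21 (SE 0.47) and Arc by -0.67 (SE 0.35). A fit with the batch tag as a covariate left young NACET replicate 5 alone to carry the drug difference. It gave -0.31 for Fos, -0.61 for Egr1, -0.61 for Arc and 0.27 for Nr4a1. Without young control replicate 2 and with all other young mice kept, Fos differed by -0.15 (SE 0.15), and Nr4a1 by 0.18, above 0. A single library thus carried much of the Fos and Nr4a1 values of the full comparison.

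**Figure D3:**
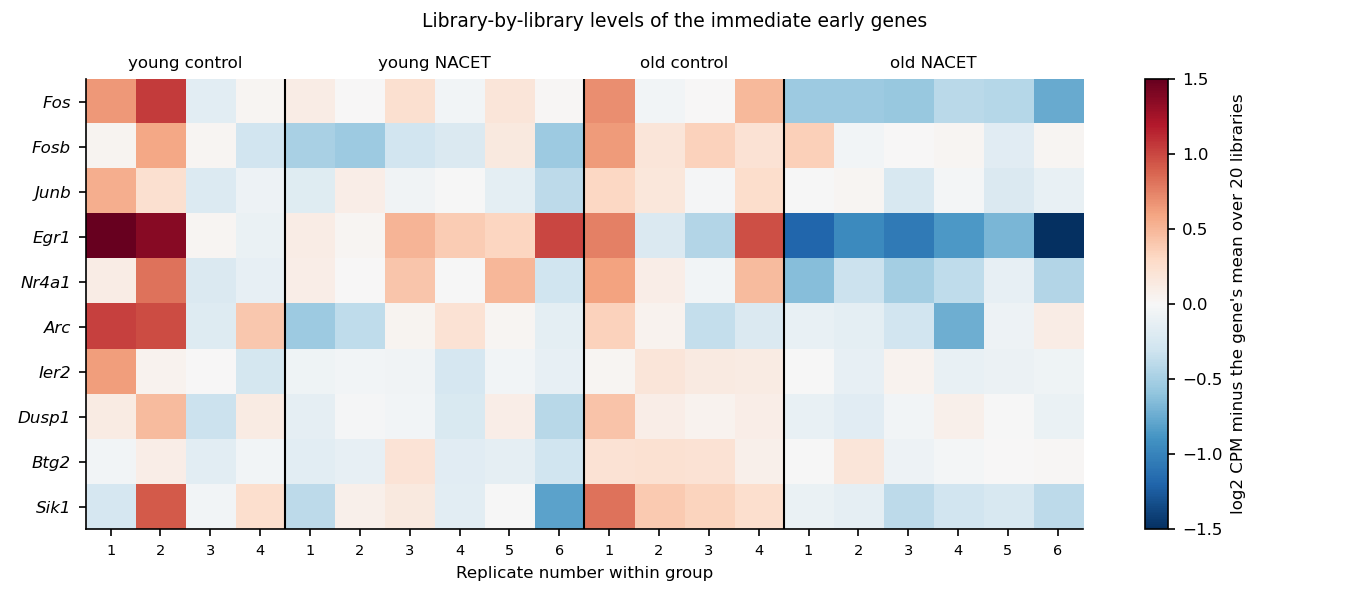
Level of each immediate early gene (rows) in each library (columns, by group and replicate number), as log2 CPM minus that gene's mean over the 20 libraries. Young control replicates 1 and 2 and old control replicates 1 and 4 are high for Fos and Egr1, and the 6 old NACET libraries are low for Fos, Egr1 and Nr4a1.

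Old controls against young controls gives the effect of age without the drug. Of the fitted differences, 5 were below 0 and 5 above, with a median of -0.01 against -0.01 for all genes, and 0 members were called, by edgeR or by DESeq2, where 1.42% of 16484 genes were called by edgeR. Before adjustment 2 of the 10 had p under 0.05. No member was lower or higher without overlap, against 1.81% and 9.45% of all genes. Arc at -0.70 (SE 0.27) and Egr1 at -0.58 (SE 0.40) were the lowest, and Fosb at 0.17 (SE 0.18) and Btg2 at 0.17 (SE 0.06) the highest. The young controls labelled male weighed on these values too. Against them alone, Egr1 was at -1.15 (SE 0.31), Arc at -1.08 (SE 0.22) and Fos at -0.60 (SE 0.18), 9 of 10 differences were below 0 and again 0 were called. That fit kept old control replicate 4, the library with Xist counts, so it may not be matched for sex.

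Among NACET-treated mice, 3 members were lower in old than in young retinas by the edgeR call (Egr1 -1.50, SE 0.16; Fos -0.68, SE 0.08; Nr4a1 -0.58, SE 0.12), where 2.64% of 16276 genes were called lower and 4.88% in either direction. Fos and Egr1 were without overlap, against 0.786% of all genes, and Nr4a1 overlapped. The other 7 genes ran from -0.14 (Sik1, SE 0.12) to 0.29 (Fosb, SE 0.13). The members were listed with these levels known, and nothing is read from this count either. This comparison shares its old NACET libraries with the comparison of NACET in old mice, and its young NACET libraries with that in young mice, so the values are not independent.

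The interaction compares the NACET difference of old mice with that of young mice. It called 0 members and 0 genes in all (0% of 16993 genes; before adjustment 1052 genes, 2 members among them, had p under 0.05, and DESeq2 called 88 genes and 0 members). The largest member values were -0.93 (SE 0.44) for Egr1, -0.63 (SE 0.24) for Nr4a1 and 0.58 (SE 0.30) for Arc. With labelled males alone, old control replicate 4 among them, the interaction was -0.19 (SE 0.36) for Egr1, -0.07 (SE 0.20) for Fos and 0.99 (SE 0.29) for Arc. In that fit the young controls were 119 and the young NACET mice 129 days old. A difference between the ages in the response of the members was therefore not detected, and its size moved with the young mice that were used.

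The members also differed in how steady they were from library to library. Among old controls the coefficient of variation of CPM had a median of 16.8% over the 10 genes, against 8.59% in old NACET mice, and was higher in controls for 8 of 10. Among young controls it was 31.8% against 15.9% with NACET, and higher for 9 of 10. The median over 11997 genes with a mean of at least 5 CPM was 6.71% in old controls, 6.37% in old NACET, 8.68% in young controls and 9.08% in young NACET mice. Egr1 had the widest spread, 56.5% in young controls, 45.9% in old controls and 19.7% in old NACET mice. The control groups hold 4 libraries and the treated groups 6, and the young controls hold both labelled sexes in equal number. As chosen genes of known lability these spreads are a description.

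High libraries tended to be high for many members at once. Young control replicate 2 was among the 2 highest young controls for 10 of 10 genes, and young control replicate 1 for 9. Old control replicate 1 was the highest old control for 7 genes, and young NACET replicate 6 the lowest young NACET library for 6. In old NACET mice no library was the highest for more than 2 genes. After the group means were removed, the median Pearson r over the 45 pairs of members was 0.48 across the 20 libraries. Fos and Nr4a1 were at 0.83, Fos and Egr1 at 0.82, and Dusp1 and Nr4a1 at 0.80, whereas Egr1 and Sik1 were at 0.01 and Ier2 and Sik1 at -0.30. Libraries share their depth and their dissection across all genes, and these values are given without a test.

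**Figure D4:**
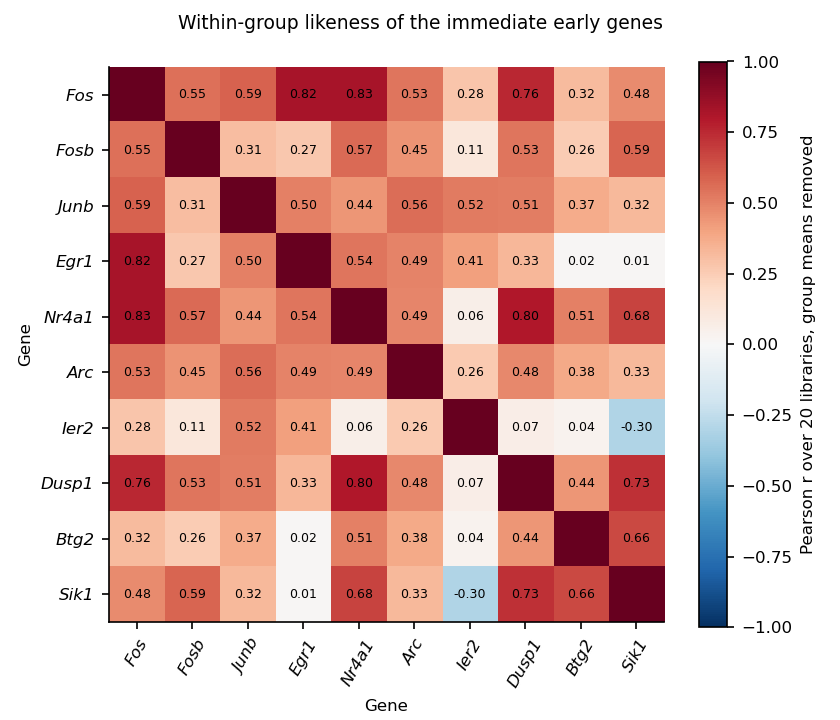
Pearson r of log2 CPM between each pair of immediate early genes over 20 libraries, after each group's mean was removed. Fos, Nr4a1 and Dusp1 vary together at 0.76 to 0.83, and Ier2 with Sik1 is the lowest pair at -0.30.

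Each member with at least 5 CPM on average was set against the mean of the other members, and its place found among 11990 genes. Fos was in place 1 (r = 0.86), Nr4a1 in place 2 (0.80) and Dusp1 in place 5 (0.76). Junb was in place 32, Sik1 in 287, Egr1 in 310, Btg2 in 623 and Ier2 in 4553. The 10 genes outside the list most like the mean of the members, over the same 20 libraries, were Sc4mol (r = 0.80), 2210012G02Rik (0.76), Ankrd50 (0.76), Pik3r3 (0.74), Zfp59 (0.73), Vipar (0.73), Evi5l (0.72), Fem1b (0.72), Rnf6 (0.72) and Surf6 (0.72). Jun, which encodes the main partner of Fos, was in place 16 (0.71), the highest of the other activity-regulated genes described next. Of these, Rgs2 followed in place 94 (0.61) and Dusp6 in 321 (0.52), with Npas4 in 1037 and Jund in 1983. These are likenesses over libraries and no test was made of them.

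Of 52 other activity-regulated genes, a list drawn up with earlier results of these data known, 47 could be tested in old mice, and 28 had differences below 0 and 19 above (median -0.04 against 0.00 for all genes). Nr4a3, the third receptor of the Nr4a family, fell, and Vgf, a secreted neuropeptide precursor, rose. Nr4a3 was at 7.83, 5.34, 5.47 and 4.03 CPM in old controls and 2.46 to 3.66 CPM in old NACET mice, without overlap, a log2 difference of -0.91 (SE 0.16, edgeR adjusted p = 0.0313). Vgf was at 24.7, 20.0, 20.2 and 23.0 CPM in old controls and 24.6 to 37.5 CPM in old NACET mice, with overlap, a log2 difference of 0.53 (SE 0.11, edgeR adjusted p = 0.0490). So 2 of 47 were called, 1 in each direction, where 0.543% of all genes were. Without old control replicate 2, or without old NACET replicate 3, 4, 5 or 6, 0 of them were called, and without old control replicate 1 or 3 only Nr4a3 was. Over the 18 alternatives and left-out libraries, Nr4a3 kept its call in 8 (adjusted p = 0.000211 to 0.532 by edgeR or DESeq2) and Vgf in 4 (0.000979 to 0.611), and Vgf lost it also with RLE size factors and without old control replicate 4. Jun was at 34.6 to 38.1 CPM in old controls and 33.5 to 38.4 CPM in old NACET mice, and was not called. In young mice Nr4a3 was at -1.18 (SE 0.37, edgeR adjusted p = 1.00) and 0 of 48 were called (7 had p under 0.05 before adjustment), with young control replicate 2 at 11.9 CPM and the other young controls at 2.73 to 3.58 CPM.

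**Figure D5:**
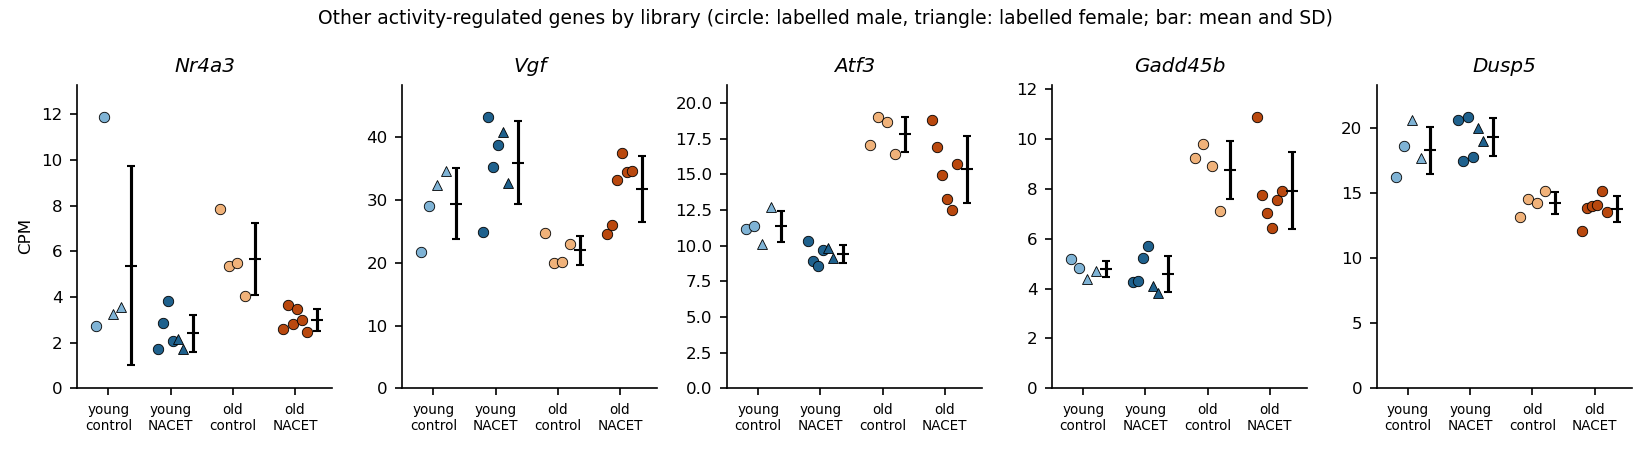
Level in CPM (y axis, linear from 0) by group (x axis) of the 5 activity-regulated genes outside the list that were called in any comparison, with the mean and SD beside the points. Circles are mice labelled male and triangles mice labelled female. Nr4a3 separates old NACET from old control libraries, and Atf3 and Gadd45b separate old from young controls. Of all genes, 1.81% are lower without overlap in the first of these comparisons, and 9.45% are higher without overlap in the second.

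With age, Atf3 and Gadd45b of this list rose. Atf3, a stress-induced partner of AP-1 proteins, was at 10.1 to 12.7 CPM in young controls and 16.4 to 19.0 CPM in old controls, a log2 difference of 0.60 (SE 0.09, edgeR adjusted p = 0.00655). Gadd45b, a stress-induced signalling protein, was at 4.40 to 5.21 CPM in young and 7.10 to 9.78 CPM in old controls, a log2 difference of 0.83 (SE 0.12, edgeR adjusted p = 0.00534). Both also rose in old against young NACET mice, by 0.65 (SE 0.10, edgeR adjusted p = 0.000869) and 0.74 (SE 0.12, edgeR adjusted p = 0.00187). There Dusp5, a nuclear phosphatase of ERK, fell by 0.54 on the log2 scale (SE 0.07, edgeR adjusted p = 0.000411). In all, 2 of 48 genes (4.17%) were called between controls, where 1.42% of all genes were. Between NACET mice 3 of 46 (6.52%) were called, where 4.88% of all genes were, so that share was near the general one. Neither call between controls was made with labelled males alone or with labelled sex as a covariate. In the interaction 0 of 48 were called by edgeR or by DESeq2 (5 had p under 0.05 before adjustment), Klf4 having the smallest p with -2.10 (SE 0.70, edgeR adjusted p = 0.493). Klf4 was at 10.1 CPM in old control replicate 2 and 7.45 CPM in young NACET replicate 4, the libraries with the most epithelial markers, and at 1.19 to 2.24 CPM in old NACET mice, and the part of the epithelium in its values was not tested.

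Of 24 upstream regulators of these genes, all 24 could be tested. In old mice 2 were called higher with NACET, Mkl1, a coactivator of SRF, by 0.24 (SE 0.05, edgeR adjusted p = 0.0428), and Elk1, an ERK-responsive partner of SRF, by 0.17 (SE 0.04, edgeR adjusted p = 0.0495). Mkl1 was at 25.3 to 26.4 CPM in old controls and 28.9 to 32.0 CPM in old NACET mice, and Elk1 at 44.7 to 47.9 and 50.3 to 54.8 CPM, neither with overlap. Of all genes, 1.76% were higher without overlap in this comparison. So 2 of 24 were called, where 0.543% of all genes were in either direction. Over the same 18 alternatives and left-out libraries Mkl1 kept its call in 5 (adjusted p = 0.00400 to 0.530 by edgeR or DESeq2) and Elk1 in 1, under DESeq2 (0.0113 to 0.546). With any single old NACET library left out, with old control replicate 2 or 4 left out, or with 668-day mice only, neither was called. In young mice 0 were called (3 had p under 0.05 before adjustment), with Mkl2 nearest at -0.24 (SE 0.08, edgeR adjusted p = 1.00). Elk3, a further SRF partner, rose with age by 0.56 (SE 0.11, edgeR adjusted p = 0.0303) in controls and by 0.49 (SE 0.08, edgeR adjusted p = 0.00115) in NACET mice. Elk3 was the 1 of 24 called in each of these comparisons, where 1.42% and 4.88% of all genes were called. The call held in 6 of 16 alternatives and left-out libraries between controls and in 19 of 19 between NACET mice. Of Elk3's exon bases, 6.95% lie over a gene on the opposite strand, and the library kit does not keep strand. In the interaction 0 were called by edgeR (3 had p under 0.05 before adjustment), with Mkl1 nearest at 0.40 (SE 0.08, edgeR adjusted p = 0.0678). There 1 of the 24 was called higher by DESeq2, 1 by edgeR without a filter, and 1 by edgeR without young NACET replicate 1. Srf itself was not called in any of these comparisons by edgeR with all their libraries and the filter.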

How the data were processed

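Poly(A) RNA libraries of mouse retina (TruSeq v2, a kit that does not keep strand) were analysed. Per the labels, the deposited values are whole-number read counts per gene, which the authors obtained with TopHat2 2.1.0, Bowtie and HTSeq 0.11.2 on mm9; the annotation used for counting was not given in the sources used here. A single row named by a point (0.00143% of gene counts) and HTSeq's summary rows were left out of library sizes, and 0 columns were of unknown origin. CPM were computed on gene totals of 17.7 M to 31.1 M.

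Group differences were fitted across all genes with edgeR 4.0.16 (R 4.3.3, quasi-likelihood test, TMM, filterByExpr, Benjamini-Hochberg adjusted p under 0.05), on the groups compared only, or on all 20 libraries for the interaction. The pipeline was tested on simulated counts with the same spread setting for every gene and no carry-over tissue in single libraries. That is a check of the code and does not show how it performs on these data. The study's methods name DESeq2, which was run as an alternative (version 1.42.0), with other normalization, no filter, age, sex and batch terms, replicate numbers as a block, and each library left out. Likeness used Pearson's r of log2 CPM (prior count 1) for genes of at least 5 CPM on average, with group means removed. Gene positions are those of GENCODE M1 on mm9, and promoters those of RefSeq on GRCm38.p6.

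The 10 members and the lists were chosen with earlier results of these data known. Besides the members, the text names the genes called in the other activity and upstream lists (or the one with the smallest p), and the 10 genes most like the members. Genes such as Jun and Klf4 were named after their values were seen.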

Additional observations from a re-analysis of the deposited data

Results flagged for a closer look

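In groups of 4 or 6 libraries, a value was singled out where its gap to the next library was wide against the range of its group (Dixon's test at the 95% level), which chance gives in about 1 group in 20. Of 100 sets tested, 12 were singled out. Among the members, Dusp1 was at 22.1 CPM in old control replicate 1 against 17.1 to 17.6 CPM in the other old controls, and Fosb at 4.44 CPM in old NACET replicate 1 against 3.07 to 3.54 CPM in the other old NACET libraries. Btg2 was at 105 CPM in young NACET replicate 3 against 73.9 to 83.8 CPM, at 95.8 CPM in old control replicate 4 against 106 to 107 CPM, and at 103 CPM in old NACET replicate 2 against 86.2 to 92.0 CPM. No value of Fos, Egr1, Nr4a1, Sik1, Junb, Ier2 or Arc was singled out in any group.

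Among genes outside the list, Nr4a3 was at 11.9 CPM in young control replicate 2 against 2.73 to 3.58 CPM in the other young controls, and Gadd45b at 10.9 CPM in old NACET replicate 1 against 6.43 to 7.92 CPM. Elk1 was at 34.9 CPM in young control replicate 1 against 47.1 to 49.5 CPM, and Elk3 at 8.27 CPM in old control replicate 1 against 9.38 to 9.46 CPM. Epithelial markers summed to 619 CPM in old control replicate 2 against 32.0 to 83.5 CPM in the other old controls, and blood markers to 108 CPM there against 27.1 to 30.5 CPM. Lens markers summed to 7411 CPM in old NACET replicate 1, the library with the high Fosb and Gadd45b, against 1.17 to 2.55 CPM in the other old NACET libraries, and their part in those values was not tested.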

How the results depend on the processing

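The differences of the members between old NACET and old control mice kept their sign in 180 of 180 values over the alternatives and left-out libraries. The sign held in 187 of 190 values in young mice, 135 of 160 between controls, 180 of 190 between NACET mice and 247 of 270 in the interaction. These refits share most of their libraries, so the values are not separate checks. In old NACET against old control mice the number of members called did not hold. It was 4 with RLE size factors, with DESeq2 and without a filter, 2 with the replicate block and 0 with a fit on all 4 groups, with 668-day mice only, with the age cohort as a covariate and with old control replicates 2 and 4 both left out, the last a choice made after seeing the data. Leaving out each library gave 2 to 4. For the other activity genes in old mice the count of 2 became 1 with RLE size factors, 6 with DESeq2, 0 with the replicate block, with all 4 groups, with 668-day mice only, with the age cohort and without old controls 2 and 4, and 0 to 2 on leaving out each library. In young mice, 1 member was called with labelled males only (119-day controls against 129-day NACET mice), and 0 otherwise. Between controls the 2 other activity genes became 5 with DESeq2, 0 with labelled sex as a covariate, 0 with labelled males only, 1 without old controls 2 and 4, and 2 to 5 on leaving out each library (5 without young control replicate 1). Between NACET mice the 3 other activity genes became 6 with DESeq2, 5 with all 4 groups, 5 with labelled sex as a covariate, 6 with labelled males only and 3 to 5 on leaving out each library (5 without young NACET replicate 5 or 6 or old NACET replicate 6), while the 3 members were called throughout. The interaction called 0 members and 0 other activity genes throughout. Over all genes, edgeR called 90 and DESeq2 373 in old mice with NACET, 234 and 724 between controls, 795 and 1312 between NACET mice, and 0 and 88 in the interaction, and the replicate block gave 17 where the fit without it gave 90. The causes were not tested.

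The replicate numbers did not pair the libraries: correlations of same-numbered deviations ran from -0.15 to 0.43, and 3 of 18 libraries correlated best with their own number, so the replicate block is no paired analysis. The median r over pairs of members was 0.48, and 0.34 to 0.49 on leaving out each library. Depth limits Arc and Fosb most, at 19 to 76 and 42 to 128 counts a library.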
